A study of Homo sapiens with 12 samples.

Results

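The genes described here encode the subunits of the receptors for acetylcholine, glutamate and GABA. They were taken from the deposited table as the protein_coding genes whose symbols begin with CHRNA, CHRNB, CHRM, GABRA, GABRB, GABRG or GABBR, or with GRIA, GRIN, GRIK, GRID or GRM and 1 digit, which gave 58 of 19951 protein_coding genes and of 58735 genes in all. The rule reads symbols and gene types. RNA sequencing covered 12 libraries of 2 neuroblastoma lines, grown from tumours of the human sympathetic lineage, in 4 groups of 3 libraries. SK-N-SH cells had either shNC, the control hairpin of the titles (genotype given as WT), or shL5, whose genotype is given as knockdown of TSPYL5, a gene of the nucleosome assembly family. The labels name no treatment beside the hairpins. The second line had the same pair of hairpins; its titles name it SK_N_BE2 and its other labels SH-SY5Y, and it is referred to as the second line. How many hairpin sequences, clones or separate cultures stand behind the libraries is unknown from the sources used, so p-values measure the spread between these libraries, which may be technical.

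The labels did not match the targeted gene throughout. TSPYL5 ranged from 12.2 to 13.4 FPKM (fragments per kilobase of gene, divided by the authors' measure of depth) in SK-N-SH shNC and from 17.1 to 18.3 in SK-N-SH shL5, where a fall was labelled. In the second line it was 24.04 to 25.8 with shNC against 12.4 to 13.3 with shL5. MYCN, the oncogene amplified in some neuroblastomas, averaged 0.0408, 1028, 1040 and 0 FPKM in the same order of groups. MYCN was thus alike in SK-N-SH shL5 and second-line shNC, and at or near 0 in the other 2 groups. Whether libraries were exchanged between the lines was not tested; if they were, the differences within a labelled line given below would be differences between lines. Group names are therefore the labels only, and every direction is one between libraries labelled that way. Markers of noradrenergic neuroblastoma (8 genes, among them TH and DBH) had sums of 85.7 to 97.4 FPKM with TH at 0 reads (SK-N-SH shNC), 1610 to 1718 (SK-N-SH shL5), 1766 to 1815 (second-line shNC) and 58.4 to 74.0 with TH at 0 reads (second-line shL5). Markers of mesenchymal neuroblastoma (8 genes, among them PRRX1, FN1 and VIM) had sums of 761 to 780.5, 116 to 123, 102 to 107 and 742 to 834 FPKM. Those of Schwann, epithelial, blood and endothelial, muscle, and glial and central neuronal cells summed to under 2 FPKM per list in every library. Depth was 15425460 to 19249018 reads per library.

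Receptors for these transmitters come in a pair of architectures. Ionotropic receptors are ion channels built from several subunits around a pore: nicotinic receptors and GABA-A receptors are pentamers, and the AMPA, kainate, delta and NMDA receptors of glutamate are tetramers. Muscarinic, GABA-B and metabotropic glutamate receptors signal through G proteins. Sympathetic neurons, the normal counterparts of noradrenergic neuroblastoma cells, receive their input through ganglionic nicotinic receptors made chiefly of CHRNA3 and CHRNB4, and they carry muscarinic receptors besides. A channel needs compatible partners, so the level of an obligatory subunit such as GRIN1 bears on what can assemble, although RNA levels do not show which receptors reach the membrane.

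Most of the 58 genes were scarcely read in any group, and the others differed strongly between the groups. In SK-N-SH shNC 7 genes had a mean of at least 1 FPKM, in SK-N-SH shL5 18, in second-line shNC 18 and in second-line shL5 9. Across all 12 libraries 55 were read at least once, and 24 reached 1 FPKM in the mean of some group. The same count over all genes was not made, so these numbers are not read as particular to receptor genes. The test (limma on log2(FPKM + 1), Benjamini-Hochberg adjustment over all genes, threshold 0.05) took genes with a mean of at least 0.5 FPKM over the 12 libraries, which left 23 of the 58. All 23 passed in SK-N-SH shL5 against SK-N-SH shNC, 17 higher and 6 lower, where 79.8% of all 15856 tested genes passed, 40.7% higher and 39% lower. All 23 also passed in the second line, 6 higher and 17 lower, where 80% of all genes passed, 39.9% higher and 40.2% lower. The 17 that were higher with shL5 in SK-N-SH were the 17 that were lower with it in the second line, and the 6 lower were the 6 higher. How many of all tested genes reversed in this way was not counted, so the reversal is not read as particular to the 23. Since a gene high in 1 pair of groups passes the filter through those groups, these counts describe the genes tested and not all 58. The median log2 fold over the 23 was 1.65 in SK-N-SH and -1.88 in the second line, against 0.02 and -0.02 over all genes tested. In bulk RNA, fewer cells that express a gene and less RNA per cell cannot be told apart, and the part of the marker sums above in these differences was not tested.

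**Figure D1:**
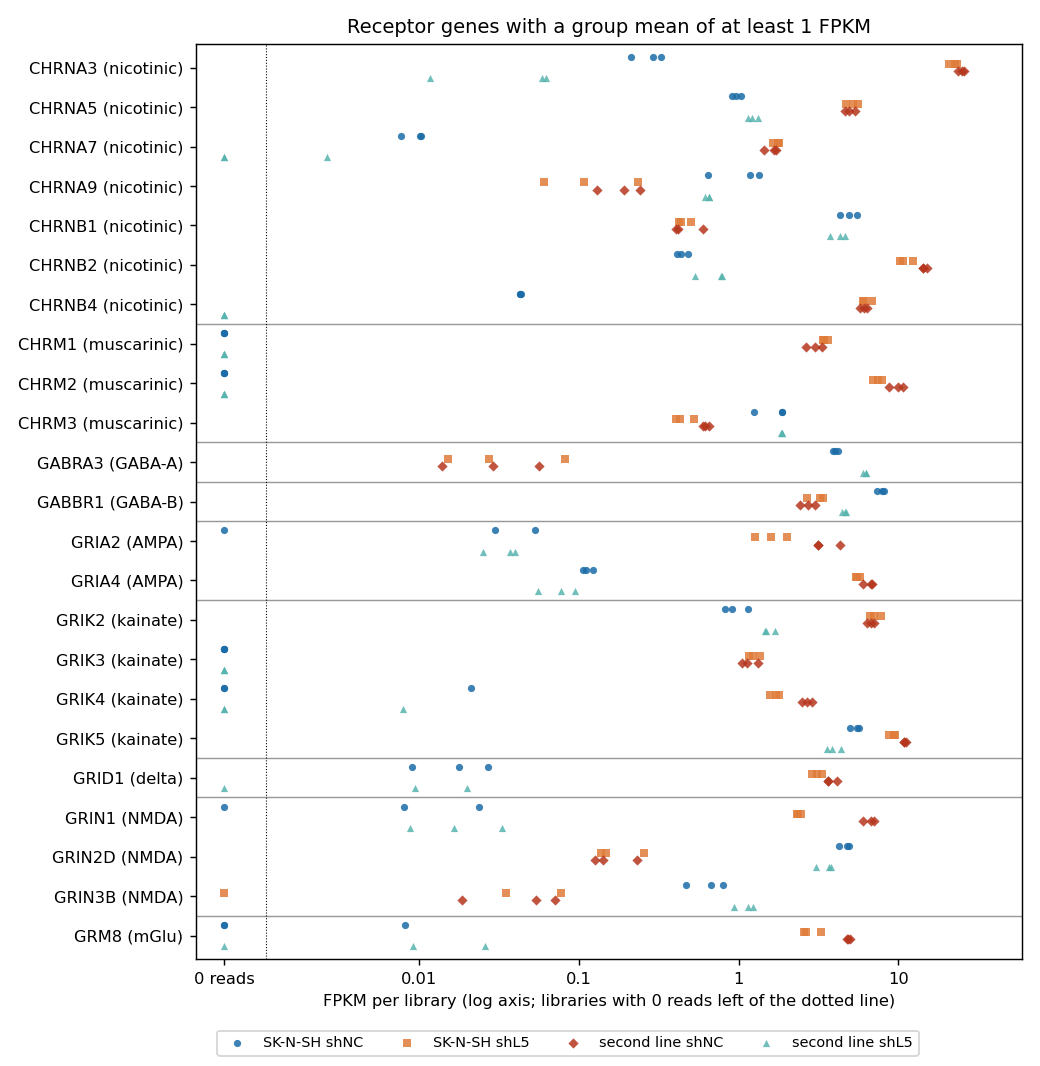
FPKM of 23 of the 24 receptor genes that reached a mean of 1 FPKM in some group, on a log axis, with 1 point per library and colours for the 4 groups. SK-N-SH shL5 and second-line shNC lie together for most genes, as do SK-N-SH shNC and second-line shL5, and CHRNA3 reaches 22.2 and 24.8 FPKM in the first pair.

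CHRNA3, a ganglionic nicotinic subunit, had the highest FPKM of the set, and the ganglionic subunits changed in opposite directions with shL5 in the 2 lines. CHRNA5, CHRNA3 and CHRNB4 lie side by side on chromosome 15 (GRCh38; CHRNA5 at chr15:78565520-78595269 on the plus strand, CHRNA3 at chr15:78593052-78621295 and CHRNB4 at chr15:78624119-78727754 on the minus strand). Their shared neighbourhood is why the start regions of CHRNA3 and CHRNB4 are printed here, 250 bases before to 50 bases after the RefSeq start on GRCh38.p14, read in the direction of the gene; CHRNA5 had no entry. CHRNA3 is chr15:78620947-78621246 and CHRNB4 chr15:78641161-78641460, both on the minus strand. The CHRNB4 window lies well inside the span given above, which starts at 78727754 on the minus strand. It is thus not the outermost start of the gene as counted for FPKM. Capitals mark the GC box GGGCGG on either strand, a motif bound by Sp family factors.
CHRNA3: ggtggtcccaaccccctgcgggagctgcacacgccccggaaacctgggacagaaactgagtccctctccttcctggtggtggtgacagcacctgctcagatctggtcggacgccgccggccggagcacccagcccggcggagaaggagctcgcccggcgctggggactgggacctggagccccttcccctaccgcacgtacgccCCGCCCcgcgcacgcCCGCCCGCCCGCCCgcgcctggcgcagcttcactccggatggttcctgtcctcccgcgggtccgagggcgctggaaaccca
CHRNB4: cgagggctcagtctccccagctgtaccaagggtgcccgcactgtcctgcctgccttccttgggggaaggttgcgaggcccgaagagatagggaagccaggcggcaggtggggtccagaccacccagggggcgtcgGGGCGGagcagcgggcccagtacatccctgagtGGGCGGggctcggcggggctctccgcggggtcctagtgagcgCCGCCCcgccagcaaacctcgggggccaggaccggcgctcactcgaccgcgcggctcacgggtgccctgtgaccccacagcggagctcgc
CHRNA3 held 4 matches, beginning at positions -46, -31, -27 and -23 from the start, and CHRNB4 held 3, at -115, -82 and -40. The CHRNA3 matches at -31, -27 and -23 share bases with their neighbours in a single stretch, so they are not separate sites. The motif is common: 45.0% of 35116 windows of this length held it, as did 29 of the 60 windows of receptor genes. Those 60 belong to 41 genes, of which 22 had a match, so the matches describe these windows and nothing more.

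CHRNA3 encodes the subunit that defines the ganglionic receptor. CHRNA3 read 0.293, 0.211 and 0.326 FPKM in the SK-N-SH shNC libraries and 22.6, 23.2 and 20.9 with shL5. The second line read 25.1, 23.6 and 25.7 with shNC and 0.0116, 0.0621 and 0.0585 with shL5. The groups did not overlap within either line. The mean was 80.5-fold higher in SK-N-SH shL5 than in its control, a log2 difference of 4.19 (SE 0.057, adjusted p = 7.32e-14), and 562-fold lower in second-line shL5, -4.63 (SE 0.057, adjusted p = 3.13e-14). These were the largest levels of the 58 genes in the 2 groups where it was high.

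CHRNB4 is the usual partner of CHRNA3. CHRNB4 stood at 0.0431, 0.0425 and 0.04301 FPKM in SK-N-SH with shNC and at 6.12, 6.896 and 6.01 with shL5. Second-line shNC libraries held 6.09, 5.802 and 6.42, and second-line shL5 libraries 0, 0 and 0. Thus no read of CHRNB4 was seen in second-line shL5, and only 12 reads in the 3 SK-N-SH shNC libraries. The mean was 148-fold higher in SK-N-SH shL5 (log2 fold 2.81, SE 0.060, adjusted p = 2.95e-12), and at least 534-fold lower in second-line shL5 when its 0 reads are set at 3 reads over the group (log2 fold -2.83, SE 0.060, adjusted p = 2.54e-12).

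CHRNA5 cannot form a channel without such partners and tunes the receptor it joins. Levels of CHRNA5 were 0.903, 1.04 and 0.9599 FPKM under the shNC label of SK-N-SH and 4.72, 5.57 and 5.24 under its shL5 label. The corresponding values in the second line were 5.38, 4.88 and 4.65 for shNC and 1.21, 1.14 and 1.32 for shL5. It followed its neighbours in direction, with smaller folds: 5.35-fold higher (log2 fold 1.65, SE 0.068, adjusted p = 8.06e-10) and 4.05-fold lower (log2 fold -1.42, SE 0.068, adjusted p = 2.69e-09). CHRNA5 shares 23.0% of its exon bases with the antisense gene AC027228.2 and 5.47% with CHRNA3, and no source used here says whether reads were counted by strand, so part of its level cannot be told apart from theirs.

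CHRNB2, the partner of CHRNA4 in most brain nicotinic receptors, was high where CHRNA3 was high. CHRNB2 read 0.483, 0.413 and 0.436 FPKM in the SK-N-SH shNC libraries and 10.7, 10.2 and 12.4 with shL5. Under the shNC label of the second line it stood at 14.3, 14.2 and 15.1, and under the shL5 label at 0.772, 0.783 and 0.5303. It rose 25.04-fold in SK-N-SH (log2 fold 3.06, SE 0.077, adjusted p = 1.16e-11) and fell 20.9-fold in the second line (log2 fold -3.20, SE 0.077, adjusted p = 7.36e-12). CHRNA4 itself had 16 reads over all 12 libraries.

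CHRNA7 forms receptors of a single subunit type. CHRNA7 stood at 0.00767, 0.0101 and 0.0102 FPKM in SK-N-SH with shNC and at 1.78, 1.76 and 1.65 with shL5. Its second-line values were 1.704, 1.45 and 1.66 with shNC and 0, 0 and 0.00266 with shL5. The mean was 186-fold higher in SK-N-SH shL5 (log2 fold 1.44, SE 0.067, adjusted p = 2.33e-09). For the second line the log2 difference was -1.38 (SE 0.067, adjusted p = 3.08e-09), and with 1 read in the shL5 libraries the ratio of shNC to shL5 was 1812 (95% counting interval 319 to 70340). Without second-line shL5 replicate 3, which held that read, no ratio is given. CHRFAM7A, a partial copy of CHRNA7, averaged 0.0442, 1.88, 1.53 and 0.0247 FPKM in SK-N-SH shNC, SK-N-SH shL5, second-line shNC and second-line shL5, and reads of the copied exons may be split between the 2 genes.

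CHRNB1 and CHRNA9 went the other way. CHRNB1 is known as the beta subunit of the muscle receptor. Levels of CHRNB1 were 4.301, 4.92 and 5.51 FPKM under the shNC label of SK-N-SH and 0.433, 0.425 and 0.5004 under its shL5 label. The second line read 0.419, 0.406 and 0.5995 with shNC and 4.63, 4.32 and 3.75 with shL5. It was 10.9-fold lower in SK-N-SH shL5 (log2 fold -2.02, SE 0.090, adjusted p = 1.61e-09) and 8.92-fold higher in second-line shL5 (log2 fold 1.83, SE 0.090, adjusted p = 3.60e-09). Its muscle partners were nearly absent: CHRNA1 had 6 reads in all, and CHRND, CHRNE and CHRNG stayed under 0.1 FPKM in the mean of every group. CHRNB1 shares 14.6% of its exon bases with AC113189.4 on the same strand.

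CHRNA9, a subunit known from cochlear hair cells, exceeded 1 FPKM only in libraries of SK-N-SH shNC. CHRNA9 read 0.644, 1.34 and 1.18 FPKM in the SK-N-SH shNC libraries and 0.108, 0.236 and 0.0603 with shL5. Second-line shNC libraries held 0.129, 0.2403 and 0.191, and second-line shL5 libraries 0.613, 0.654 and 0.652. The groups were apart within each line, with log2 differences of -0.84 (SE 0.12, adjusted p = 5.60e-05) and 0.47 (SE 0.12, adjusted p = 0.00431). The ratio of means, shNC over shL5 in SK-N-SH, was 7.83-fold with all libraries, and ranged from 6.14 to 12.6-fold when 1 library was left out, the highest being without SK-N-SH shL5 replicate 2.

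Summed over the 13 nicotinic genes, the level was 7.96 ± 0.986 FPKM (SD, n = 3) in SK-N-SH shNC, 47.4 ± 1.12 in SK-N-SH shL5, 52.96 ± 2.03 in second-line shNC and 7.17 ± 0.499 in second-line shL5. CHRNB1 made up 61.8% of that sum in SK-N-SH shNC and 58.9% in second-line shL5. CHRNA3 made up 46.9% in SK-N-SH shL5 and 46.8% in second-line shNC.

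The muscarinic receptors divided into 2 patterns. CHRM1, which couples to Gq, had no read in SK-N-SH shNC or second-line shL5, so its groups did not overlap in either line. CHRM1 stood at 0, 0 and 0 FPKM in SK-N-SH with shNC and at 3.63, 3.43 and 3.39 with shL5. The corresponding values in the second line were 3.31, 2.65 and 3.03 for shNC and 0, 0 and 0 for shL5. Set against 3 reads over the group, SK-N-SH shL5 was at least 212-fold higher (log2 fold 2.16, SE 0.069, adjusted p = 8.98e-11) and second-line shL5 at least 171-fold lower (log2 fold -2.00, SE 0.069, adjusted p = 1.62e-10).

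CHRM2, the Gi-coupled receptor known from heart and autonomic nerve endings, had the same absence at a higher level. Levels of CHRM2 were 0, 0 and 0 FPKM under the shNC label of SK-N-SH and 7.92, 7.48 and 6.998 under its shL5 label. Under the shNC label of the second line it stood at 9.903, 8.804 and 10.6, and under the shL5 label at 0, 0 and 0. The bounds were at least 1165-fold higher in SK-N-SH shL5 (log2 fold 3.08, SE 0.067, adjusted p = 3.48e-12) and at least 1433-fold lower in second-line shL5 (log2 fold -3.43, SE 0.067, adjusted p = 1.36e-12).

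CHRM3, a Gq-coupled receptor known from smooth muscle and glands, was the muscarinic gene of the other 2 groups. CHRM3 read 1.25, 1.87 and 1.87 FPKM in the SK-N-SH shNC libraries and 0.523, 0.4298 and 0.403 with shL5. Its second-line values were 0.62, 0.654 and 0.595 with shNC and 1.84, 1.87 and 1.88 with shL5. It fell 3.68-fold in SK-N-SH (log2 fold -0.87, SE 0.091, adjusted p = 3.38e-06) and rose 2.99-fold in the second line (log2 fold 0.82, SE 0.091, adjusted p = 5.51e-06). CHRM3 was 98.9% of the summed muscarinic FPKM in SK-N-SH shNC and 93.8% in second-line shL5, whereas CHRM2 was 64.4% in SK-N-SH shL5 and 71.1% in second-line shNC. CHRM4 and CHRM5 had 44 and 28 reads in all.

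The GABA-A receptor is a chloride channel. GABRA3, on chromosome X, encodes one of its alpha subunits, and alpha subunits form the GABA site together with a beta subunit. GABRA3 stood at 4.18, 4.02 and 3.89 FPKM in SK-N-SH with shNC and at 0.0813, 0.0274 and 0.0152 with shL5. The second line read 0.0139, 0.0559 and 0.0288 with shNC and 5.995, 6.25 and 6.32 with shL5. Its log2 difference was -2.27 (SE 0.055, adjusted p = 7.95e-12) in SK-N-SH and, for the second line, 2.80 (SE 0.055, adjusted p = 1.32e-12), with no overlap between the groups of a line. The size of the fold is set by a few reads in the low groups. The ratio of shNC to shL5 in SK-N-SH was 97.7-fold and 74.2 to 189-fold with 1 library left out, and that of shL5 to shNC in the second line was 188-fold and 146 to 289.6-fold. The highest of these were without SK-N-SH shL5 replicate 1 and without second-line shNC replicate 2.

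No gene of the gamma group exceeded 0.133 FPKM in the mean of a group, and GABRA6 had no read. After GABRA3, the alpha gene with the highest level was GABRA5, at 0.0945 FPKM in SK-N-SH shL5 and 0.119 in second-line shNC.

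**Figure D2:**
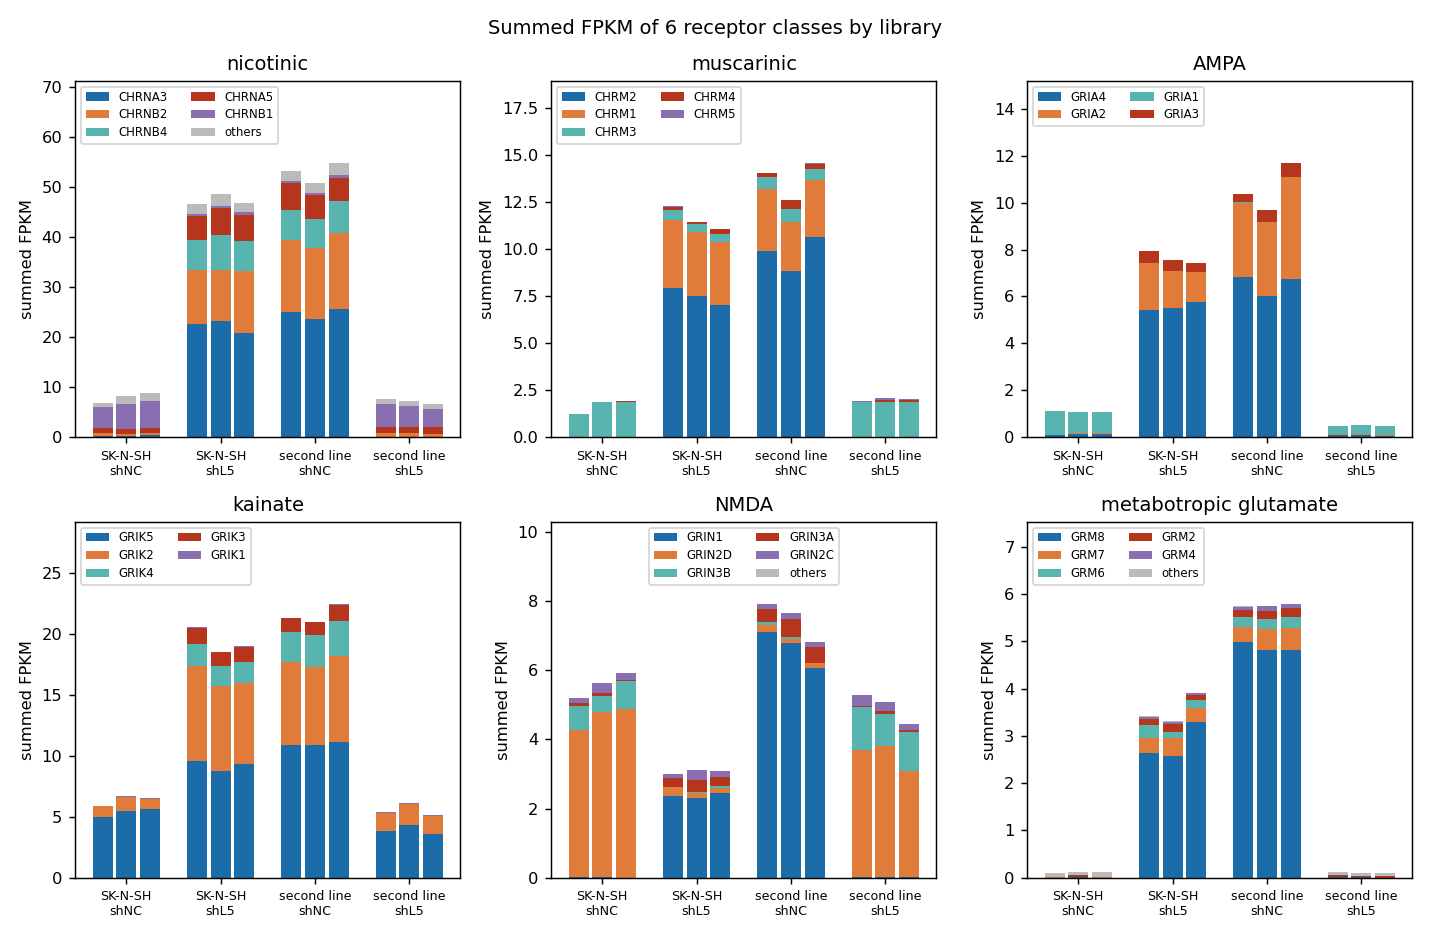
Summed FPKM of 6 receptor classes (1 panel each), with 1 stacked bar per library in 4 groups of 3, and a colour for each of up to 5 genes, the rest pooled as others. Nicotinic, muscarinic, AMPA, kainate and metabotropic glutamate bars are taller in SK-N-SH shL5 and second-line shNC, and the NMDA bars are GRIN1 for the most part in those groups and GRIN2D in the other 2.

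The GABA-B receptor works as a pair of GABBR1, which binds GABA, and GABBR2, which carries the partner to the membrane and couples to the G protein. Levels of GABBR1 were 7.37, 7.89 and 8.17 FPKM under the shNC label of SK-N-SH and 3.22, 3.37 and 2.7 under its shL5 label. Second-line shNC libraries held 2.42, 2.72 and 3, and second-line shL5 libraries 4.71, 4.61 and 4.43. It was 2.52-fold lower in SK-N-SH shL5 (log2 fold -1.11, SE 0.074, adjusted p = 5.96e-08) and 1.69-fold higher in second-line shL5 (log2 fold 0.59, SE 0.074, adjusted p = 1.57e-05). GABBR2 had 9 reads in all, 4 in SK-N-SH shL5 and 5 in second-line shNC. GABBR1 shares 8.52% of its exon bases with UBD on the same strand and with OR2I1P on the other.

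AMPA receptors carry most fast excitatory transmission in the brain, and both their summed level and their leading gene differed between groups. The sum averaged 1.08 FPKM in SK-N-SH shNC, 7.63 in SK-N-SH shL5, 10.6 in second-line shNC and 0.474 in second-line shL5. GRIA4 made up 72.96% of the summed AMPA FPKM in SK-N-SH shL5 and 61.98% in second-line shNC, and GRIA1 86.4% in SK-N-SH shNC and 77.02% in second-line shL5. GRIA4 read 0.106, 0.1102 and 0.122 FPKM in the SK-N-SH shNC libraries and 5.41, 5.495 and 5.78 with shL5. The corresponding values in the second line were 6.82, 6.03 and 6.75 for shNC and 0.07705, 0.0939 and 0.0553 for shL5. It rose 49.3-fold in SK-N-SH (log2 fold 2.56, SE 0.057, adjusted p = 3.92e-12) and fell 86.6-fold in the second line (log2 fold -2.81, SE 0.057, adjusted p = 1.74e-12).

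GRIA2, the subunit whose edited transcript makes AMPA channels nearly impermeable to calcium, came second to GRIA4. GRIA2 stood at 0, 0.0532 and 0.0299 FPKM in SK-N-SH with shNC and at 2.01, 1.59 and 1.26 with shL5. Under the shNC label of the second line it stood at 3.16, 3.15 and 4.32, and under the shL5 label at 0.0372, 0.0397 and 0.02496. The log2 differences were 1.34 (SE 0.12, adjusted p = 6.10e-07) and -2.13 (SE 0.12, adjusted p = 9.46e-09), and the groups of each line did not overlap. GRIA1 lay under the filter at a mean of 0.929 FPKM in SK-N-SH shNC, 0.00529 in SK-N-SH shL5, 0.0181 in second-line shNC and 0.364 in second-line shL5, so it was not tested; it is described because it led the sum, which was seen from its values. GRIA3 averaged 0.00547, 0.445, 0.478 and 0 FPKM in the same order.

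The start regions of GRIA2 and GRM2 are printed because they alone among the 41 receptor genes with a window held TTCAGCACC, the left part of the element bound by the neuronal gene repressor REST; they were chosen after the matches were seen. The motif was found in 0.376% of the 35116 windows, and in 2 of the 60 windows of receptor genes, some of which have several start sites. The windows are chr4:157220369-157220668, the 1 of 3 GRIA2 windows with a match, and chr3:51706818-51707117, both on the plus strand (GRCh38.p14, RefSeq), and capitals mark the motif, which in GRIA2 lies on the opposite strand.
GRIA2: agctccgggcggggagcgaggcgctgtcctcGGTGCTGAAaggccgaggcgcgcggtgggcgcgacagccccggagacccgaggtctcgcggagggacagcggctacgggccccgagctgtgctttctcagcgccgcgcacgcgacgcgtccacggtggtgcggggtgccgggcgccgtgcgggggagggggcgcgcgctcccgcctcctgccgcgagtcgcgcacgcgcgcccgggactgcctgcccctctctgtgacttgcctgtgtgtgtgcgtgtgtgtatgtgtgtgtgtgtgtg
GRM2: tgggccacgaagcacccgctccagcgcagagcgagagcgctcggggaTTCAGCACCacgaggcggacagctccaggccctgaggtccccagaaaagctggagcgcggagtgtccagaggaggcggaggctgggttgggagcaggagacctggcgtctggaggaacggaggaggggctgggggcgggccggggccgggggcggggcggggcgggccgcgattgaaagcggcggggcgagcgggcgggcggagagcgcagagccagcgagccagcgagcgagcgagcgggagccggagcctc
The match began at position -219 from the start site of the GRIA2 window shown and at -203 from that of GRM2. GRM2, a presynaptic metabotropic receptor, averaged 0.0199, 0.133, 0.164 and 0.0292 FPKM and lay under the filter. Other motifs searched on both strands were CACGTG, in 7.26% of all windows and 4 of the 60, and CAGCTG, in 17.9% and 11 of the 60.

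Kainate receptor genes were the most highly expressed glutamate receptor class. Their sum was 6.399 ± 0.423 FPKM in SK-N-SH shNC, 19.4 ± 1.09 in SK-N-SH shL5, 21.6 ± 0.779 in second-line shNC and 5.57 ± 0.532 in second-line shL5. GRIK5, which cannot form a channel alone and raises the affinity of the receptor it joins, was the highest of the 5 genes in each group. Levels of GRIK5 were 4.97, 5.496 and 5.67 FPKM under the shNC label of SK-N-SH and 9.57, 8.75 and 9.37 under its shL5 label. Its second-line values were 10.9, 10.9 and 11.1 with shNC and 3.87, 4.36 and 3.61 with shL5. It rose 1.72-fold in SK-N-SH (log2 fold 0.68, SE 0.063, adjusted p = 1.04e-06) and fell 2.79-fold in the second line (log2 fold -1.28, SE 0.063, adjusted p = 3.54e-09), the smallest ratios of mean FPKM among the 17 genes of that direction.

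GRIK2, a subunit that does form channels alone, was its main companion. GRIK2 read 0.912, 1.14 and 0.818 FPKM in the SK-N-SH shNC libraries and 7.83, 7.04 and 6.67 with shL5. The second line read 6.75, 6.33 and 7.07 with shNC and 1.47, 1.701 and 1.49 with shL5. The mean was 7.49-fold higher in SK-N-SH shL5 (log2 fold 2.06, SE 0.076, adjusted p = 3.22e-10) and 4.33-fold lower in second-line shL5 (log2 fold -1.60, SE 0.076, adjusted p = 2.78e-09).

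GRIK3 and GRIK4 were read almost only where GRIK2 was high. GRIK3 stood at 0, 0 and 0 FPKM in SK-N-SH with shNC and at 1.37, 1.17 and 1.23 with shL5. Second-line shNC libraries held 1.13, 1.05 and 1.33, and second-line shL5 libraries 0, 0 and 0. Against 3 reads over the group, GRIK3 was at least 238-fold higher (log2 fold 1.17, SE 0.075, adjusted p = 3.76e-08) and at least 208-fold lower (log2 fold -1.12, SE 0.075, adjusted p = 5.51e-08). GRIK4 is, like GRIK5, a subunit that needs a partner. Levels of GRIK4 were 0, 0.0211 and 0 FPKM under the shNC label of SK-N-SH and 1.78, 1.58 and 1.72 under its shL5 label. The corresponding values in the second line were 2.497, 2.66 and 2.88 for shNC and 0, 0.00787 and 0 for shL5. With 3 reads in SK-N-SH shNC and 1 in second-line shL5, the ratios were 241-fold (95% counting interval 81.4 to 1161) and 1022-fold (191 to 42080), and the log2 differences 1.42 (SE 0.066, adjusted p = 2.32e-09) and -1.88 (SE 0.066, adjusted p = 1.89e-10). Each low group had its reads in replicate 2 alone, and no ratio is given without that library. GRIK1 had 50 reads in all.

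GRID1 encodes one of the delta receptors, which organise synapses through secreted cerebellin proteins and are grouped with the glutamate receptors by sequence. GRID1 read 0.00905, 0.0178 and 0.0271 FPKM in the SK-N-SH shNC libraries and 3.104, 2.89 and 3.31 with shL5. Under the shNC label of the second line it stood at 4.12, 3.63 and 3.63, and under the shL5 label at 0.00936, 0.01997 and 0. It was 172-fold higher in SK-N-SH shL5 (log2 fold 2.01, SE 0.065, adjusted p = 1.03e-10). The second line gave a log2 difference of -2.24 (SE 0.065, adjusted p = 3.64e-11), where the shL5 group held 3 reads and the ratio was 388-fold (95% counting interval 135 to 1922). That ratio ranged from 258 to 809-fold with 1 library left out, and was highest without second-line shL5 replicate 2, which held 2 of the reads.

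NMDA receptors require GRIN1, and their other subunits bind glutamate (the GRIN2 genes) or glycine (the GRIN3 genes). The obligatory subunit and the partner gene with most FPKM were high in different groups. GRIN1 made up 77.2% of the summed NMDA FPKM in SK-N-SH shL5 and 89.03% in second-line shNC, whereas GRIN2D made up 83.3% in SK-N-SH shNC and 70.9% in second-line shL5.

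GRIN1 stood at 0.00797, 0.0236 and 0 FPKM in SK-N-SH with shNC and at 2.35, 2.31 and 2.44 with shL5. Its second-line values were 7.09, 6.78 and 6.05 with shNC and 0.0165, 0.00879 and 0.0332 with shL5. These groups did not overlap, and the low groups held 4 and 7 reads. The log2 differences were 1.74 (SE 0.063, adjusted p = 2.54e-10) and -2.90 (SE 0.063, adjusted p = 2.79e-12). GRIN2D, a subunit of early development that gives slow currents, did the reverse. Levels of GRIN2D were 4.28, 4.78 and 4.88 FPKM under the shNC label of SK-N-SH and 0.256, 0.147 and 0.138 under its shL5 label. The second line read 0.2297, 0.126 and 0.142 with shNC and 3.68, 3.79 and 3.05 with shL5. It fell 25.8-fold in SK-N-SH (log2 fold -2.26, SE 0.081, adjusted p = 2.56e-10) and rose 21.1-fold in the second line (log2 fold 1.95, SE 0.081, adjusted p = 8.68e-10).

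GRIN3B, a glycine-binding subunit, reached 1 FPKM in second-line shL5 but lay under the filter over all libraries, so it was not tested. GRIN3B read 0.6705, 0.468 and 0.799 FPKM in the SK-N-SH shNC libraries and 0, 0.03504 and 0.0777 with shL5. Second-line shNC libraries held 0.0713, 0.0536 and 0.0184, and second-line shL5 libraries 1.23, 0.938 and 1.14. Its highest library among SK-N-SH shL5 and second-line shNC was below its lowest in the other 2 groups. GRIN2A and GRIN2B, the main partners in the forebrain, had 1 and 2 reads in all. GRIN2C averaged between 0.147 and 0.252 FPKM over the groups and GRIN3A between 0.0588 and 0.456.

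GRM8, a presynaptic receptor that couples to Gi, was the main metabotropic glutamate gene. GRM8 stood at 0, 0.00819 and 0 FPKM in SK-N-SH with shNC and at 2.64, 2.58 and 3.29 with shL5. The corresponding values in the second line were 4.98, 4.81 and 4.82 for shNC and 0.0258, 0.00916 and 0 for shL5. The log2 differences were 1.93 (SE 0.072, adjusted p = 3.51e-10) and -2.54 (SE 0.072, adjusted p = 3.10e-11), and the low groups held 1 read in SK-N-SH shNC and 4 reads in second-line shL5. GRM7, of the same subgroup, averaged 0.335 FPKM in SK-N-SH shL5 and 0.408 in second-line shNC, with 0.00649 and 0 in SK-N-SH shNC and second-line shL5. GRM5 had no read.

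The remaining genes were low everywhere. Of the 58, 34 stayed under 1 FPKM in the mean of every group: CHRNB3, GABRA6 and GRM5 had no read in any library, 20 had a highest group mean under 0.1 FPKM and 11 lay between that and 1 FPKM, with GRIA1 the highest at 0.929. Just inside the filter were CHRNA9, with a mean over all libraries of 0.504 FPKM, and GRIK3 at 0.606, and just outside it were GRIN3B at 0.459 and GRIA1 at 0.329.

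**Figure D3:**
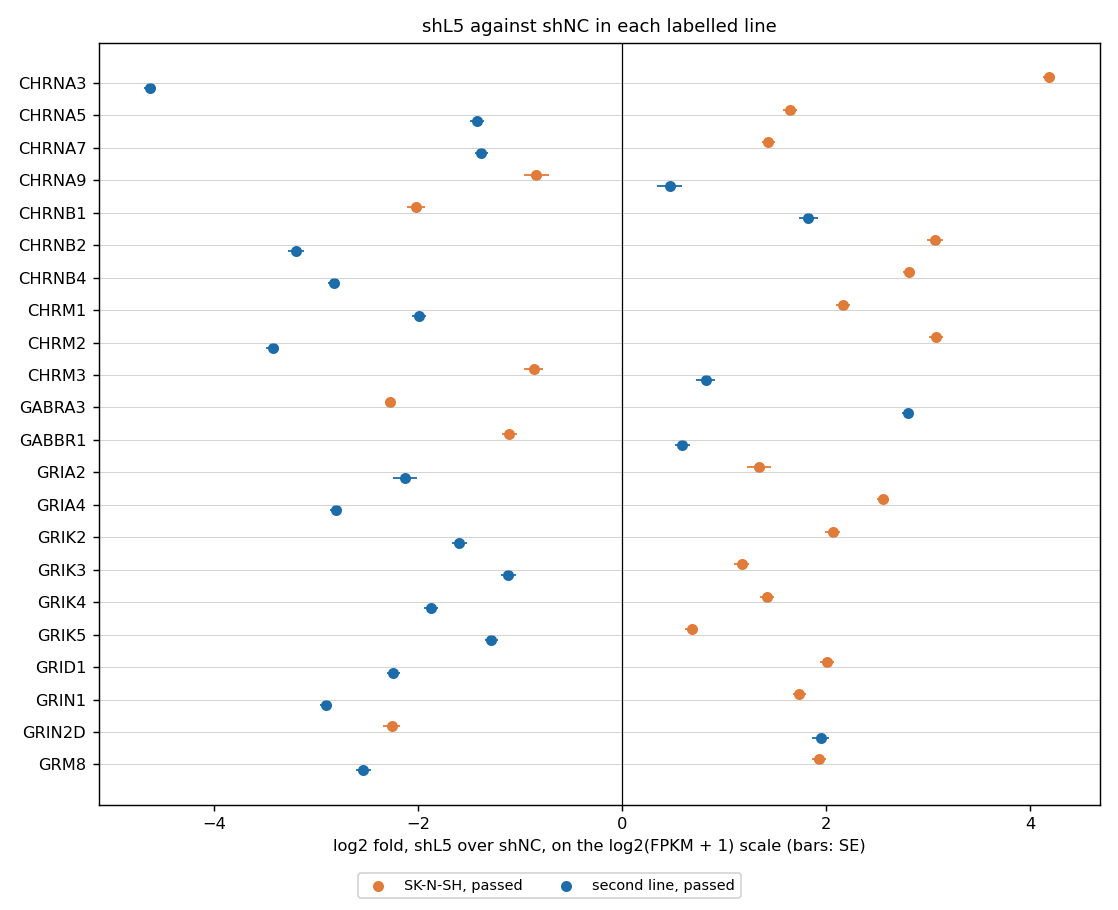
Log2 fold of shL5 over shNC on the log2(FPKM + 1) scale, with bars of 1 SE, for 22 of the 23 receptor genes tested, in SK-N-SH and in the second line. All points passed the threshold, and each gene lies on opposite sides of 0 in the 2 lines, from 4.19 and -4.63 for CHRNA3 to -2.27 and 2.80 for GABRA3.

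The difference of the 2 shL5 effects was itself tested, as an interaction in the same model. All 23 genes passed, 6 positive and 17 negative, where 84.9% of all tested genes did, 41.8% positive and 43.1% negative. The 23 had already passed in opposite directions in the 2 lines, so this outcome followed from those calls and adds no separate support. The largest were CHRNA3 at -8.81 (SE 0.081, adjusted p = 1.09e-15) among the negative and GABRA3 at 5.07 (SE 0.077, adjusted p = 7.05e-14) among the positive.

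Since the SK-N-SH shL5 and second-line shNC libraries were near each other for most receptor genes, as were the SK-N-SH shNC and second-line shL5 libraries, these pairs were compared as well. The comparisons reuse the libraries of those above. Between SK-N-SH shL5 and second-line shNC, 7 of the 23 genes passed, which is 30.4%, where 5.39% of all tested genes (854) passed. That number was 474 to 527 without SK-N-SH shL5 replicate 1 or 2 or any 1 of the second-line shNC libraries. All 7 were lower in SK-N-SH shL5, where 3.12% of all genes were lower and 2.26% higher. Many of the 23 met the filter through these 2 groups, where they were well read, so nothing is read from the 30.4%. GRIN1 had the largest difference: its mean was 2.81-fold lower in SK-N-SH shL5, 2.37 against 6.64 FPKM (log2 fold -1.18, SE 0.063, adjusted p = 1.38e-05), and the libraries did not overlap. GRIA2 was 2.19-fold lower (log2 fold -0.79, SE 0.12, adjusted p = 0.00274), GRM8 1.72-fold lower (log2 fold -0.62, SE 0.072, adjusted p = 0.000673) and GRIK4 1.58-fold lower (log2 fold -0.45, SE 0.066, adjusted p = 0.00272). Smaller differences were seen for CHRM2 (log2 fold -0.35, SE 0.067, adjusted p = 0.0127) and CHRNB2 (log2 fold -0.36, SE 0.077, adjusted p = 0.0196). Both calls were lost when single libraries were left out. CHRM2 missed the threshold, with adjusted p from 0.0512 to 0.0559, without SK-N-SH shL5 replicate 2 or 3 or second-line shNC replicate 1 or 3. CHRNB2 missed it, from 0.0578 to 0.0895, without SK-N-SH shL5 replicate 1 or 2 or any 1 of the second-line shNC libraries. CHRNA3, CHRNB4, CHRNA5 and CHRNA7 did not pass, with log2 differences of -0.15, 0.05, 0.05 and 0.07.

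**Figure D4:**
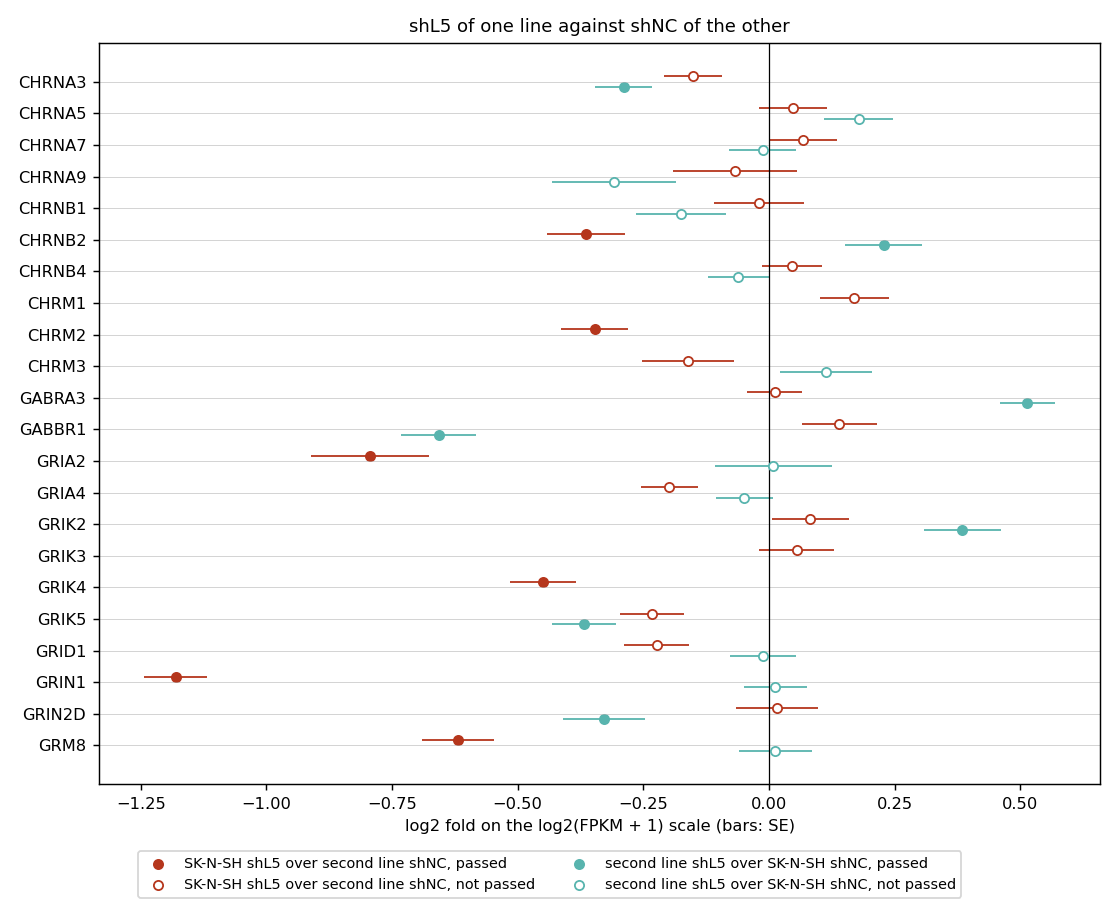
Log2 fold on the log2(FPKM + 1) scale with bars of 1 SE for 22 of the 23 tested receptor genes, in SK-N-SH shL5 over second-line shNC and in second-line shL5 over SK-N-SH shNC; filled points passed the threshold. CHRM1, CHRM2, GRIK3 and GRIK4 have no point in the second comparison, where both groups held at most 3 reads, and GRIN1 at -1.18 is farthest from 0.

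In second-line shL5 against SK-N-SH shNC, 7 of 23 passed as well, 30.4% where 44.1% of all tested genes passed. Many of the 23 met the filter only through the other 2 groups and were hardly read here (CHRM1, CHRM2 and GRIK3 had no read), so nothing is read from that share. Of the 7, 3 were higher and 4 lower in second-line shL5, where 26.9% and 17.2% of all genes were. GABRA3 was 1.53-fold higher in second-line shL5 (log2 fold 0.51, SE 0.055, adjusted p = 4.17e-05), GRIK2 1.62-fold higher (log2 fold 0.38, SE 0.076, adjusted p = 0.00201) and CHRNB2 1.57-fold higher (log2 fold 0.23, SE 0.077, adjusted p = 0.0325). GABBR1 was 1.704-fold lower (log2 fold -0.66, SE 0.074, adjusted p = 6.09e-05), GRIK5 1.36-fold lower (log2 fold -0.37, SE 0.063, adjusted p = 0.000815), GRIN2D 1.33-fold lower (log2 fold -0.33, SE 0.081, adjusted p = 0.00725) and CHRNA3 6.27-fold lower (log2 fold -0.29, SE 0.057, adjusted p = 0.00199). These were genes read in both groups, and CHRNB2 missed the threshold without SK-N-SH shNC replicate 2 or 3 or second-line shL5 replicate 1 or 2, with adjusted p from 0.0776 to 0.108.

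Of 39 auxiliary subunits, chaperones and anchoring proteins, 26 were tested: 14 were higher, 9 lower and 3 not past the threshold in SK-N-SH shL5, and 10, 14 and 2 in second-line shL5. Of all genes 79.8% and 80% passed, so the number that passed is near the background. The median log2 fold of the 26 was 0.32 and -0.28, against 0.02 and -0.02 over all genes. CACNG4, an AMPA auxiliary subunit of the stargazin family, averaged 5.31 ± 1.19 FPKM (SD, n = 3) in SK-N-SH shNC and 37.5 ± 2.77 in SK-N-SH shL5 (log2 fold 2.62, SE 0.11, adjusted p = 6.55e-10), and 52.1 ± 1.15 in second-line shNC and 14.6 ± 0.2297 in second-line shL5 (log2 fold -1.77, SE 0.11, adjusted p = 1.95e-08). SHANK1, a postsynaptic scaffold protein, averaged 0.0495, 3.15, 4.92 and 0.0639 FPKM in SK-N-SH shNC, SK-N-SH shL5, second-line shNC and second-line shL5, with log2 folds of 1.98 (SE 0.069, adjusted p = 2.01e-10) and -2.48 (SE 0.069, adjusted p = 2.79e-11). CNIH3, a cornichon that escorts AMPA receptors, had the opposite course at 16.7, 0.178, 0.262 and 12.98 FPKM (log2 fold -3.91, SE 0.055, adjusted p = 8.83e-14, and log2 fold 3.47, SE 0.055, adjusted p = 2.23e-13). HOMER3, which links group I metabotropic receptors to internal calcium stores, went the same way as CNIH3 (log2 fold -2.03, SE 0.084, adjusted p = 8.51e-10, and log2 fold 2.44, SE 0.084, adjusted p = 1.58e-10). KCTD12, an auxiliary subunit of GABA-B receptors, fell in the second line, from 19.3 ± 1.06 to 1.403 ± 0.384 FPKM (log2 fold -3.09, SE 0.098, adjusted p = 8.25e-11), and did not pass in SK-N-SH (13.6 ± 1.17 and 12.96 ± 0.461; log2 fold -0.06, SE 0.098, adjusted p = 0.593).

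The enzymes and transporters of the transmitters themselves were mostly under the filter, with 5 of 21 tested. In SK-N-SH shL5 4 were higher and 1 lower, and in second-line shL5 2 were higher and 3 lower. All 5 thus passed in both, where 79.8% and 80% of all genes did, a share too high to read anything from 5 genes. ABAT, which breaks down GABA, averaged 0.505, 2.998, 4.39 and 0.657 FPKM in SK-N-SH shNC, SK-N-SH shL5, second-line shNC and second-line shL5 (log2 fold 1.41, SE 0.094, adjusted p = 5.75e-08, and log2 fold -1.70, SE 0.094, adjusted p = 1.01e-08). SLC18A3, the transporter that loads acetylcholine into vesicles, averaged 0.125, 1.99, 2.39 and 0.429 (log2 fold 1.41, SE 0.12, adjusted p = 6.00e-07, and log2 fold -1.26, SE 0.12, adjusted p = 1.58e-06). BCHE, a cholinesterase, rose with shL5 in the second line (log2 fold 0.37, SE 0.078, adjusted p = 0.000922) and in SK-N-SH (log2 fold 0.71, SE 0.078, adjusted p = 4.70e-06). Of 16 receptor subunits outside the naming rule (such as the glycine receptor, serotonin channel and remaining muscle and GABA-A genes) only GLRB was tested. GLRB, the beta subunit of the glycine receptor, averaged 6.05 FPKM in SK-N-SH shNC and 0.124 in SK-N-SH shL5 (log2 fold -2.65, SE 0.11, adjusted p = 1.09e-09), and 0.167 and 5.82 in second-line shNC and shL5 (log2 fold 2.54, SE 0.11, adjusted p = 1.45e-09).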

How the data were processed

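The authors deposited FPKM for every gene in each library. Alignment and counting tools listed in the submitters' processing notes are HISAT2 (2.0.5) with featureCounts (1.5.0-p3). The notes also list the build mm10, which is not used, because the start and end of all 58735 genes equal those of GENCODE 29 on GRCh38. FPKM times gene length gave whole reads for 100% of values (tolerance 0.05 reads), from which depth and floors come; these cover counting error only. The depth by which the authors' FPKM is divided is in proportion to median-of-ratios size factors, not to library totals.

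Groups came from titles and genotype labels. log2(FPKM + 1) was fitted with limma 3.58.1 in R 4.3.3 (4 group means, 12 libraries, empirical Bayes with intensity trend, two-sided, Benjamini-Hochberg), for genes with a mean of at least 0.5 FPKM. The pseudocount shrinks folds of low genes, so ratios of mean FPKM are given too; 0 reads in a group are set at 3 reads over the group. The steps were tested on simulated data. Values are given per library for genes reaching 1 FPKM in a group, and up to 2 rising and 2 falling genes are named per auxiliary list and knockdown comparison. The receptor genes and lists were chosen with earlier results of these data known. 0 columns belonged to no sample. Results for a few genes are not reported here.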

Additional observations from a re-analysis of the deposited data

Results flagged for a closer look

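The change with shL5 differed between the 2 lines for the 23 receptor genes tested, by limma's test of the interaction (second line change minus SK-N-SH change, on the log2(FPKM + 1) scale; adjusted p for those named here from 1.09e-15 to 2.06e-05). All 23 passed where 84.9% of all tested genes did. This followed from their calls in opposite directions in the 2 lines, and the values below give the size of the difference only. Among nicotinic genes the difference was -8.81 for CHRNA3, -6.26 for CHRNB2, -5.64 for CHRNB4, -3.07 for CHRNA5 and -2.81 for CHRNA7, against 3.85 for CHRNB1 and 1.31 for CHRNA9. The muscarinic genes gave -6.51 for CHRM2, -4.16 for CHRM1 and 1.68 for CHRM3. GABA receptor genes gave 5.07 for GABRA3 and 1.70 for GABBR1. For the AMPA and delta genes it was -5.37 for GRIA4, -3.47 for GRIA2 and -4.25 for GRID1. Kainate genes gave -3.66 for GRIK2, -3.29 for GRIK4, -2.29 for GRIK3 and -1.97 for GRIK5. The NMDA and metabotropic genes gave -4.64 for GRIN1, 4.21 for GRIN2D and -4.47 for GRM8. The libraries of each group lay on opposite sides of those of its own control in the 2 lines for all 23 genes. How many of all tested genes did so was not counted, so this separation is not read as particular to receptor genes. TSPYL5 itself did not fall in SK-N-SH shL5, as given above, and what these differences owe to that was not tested.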

How the results depend on the processing

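In the 2 knockdown comparisons and their difference, every call of the 23 tested genes held under each setting that tested it: other pseudocounts, filters, scalings, a model of the compared groups only, no intensity trend, voom on recovered reads, and each library left out. Over all comparisons 2424 of 2488 gene values kept direction and side of the threshold, 24 lost a call, 32 gained one and 8 changed sign, and none of those 8 was a called value. The filter sets how many genes are counted: at a minimum mean of 2 FPKM, 10 were higher in SK-N-SH shL5, 10 lower in second-line shL5 and 10 negative in the difference, and with no filter 10 were higher and 26 lower in second-line shL5 and 27 negative in the difference.

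Between SK-N-SH shL5 and second-line shNC, 4 genes were lower with a pseudocount of 0.1 (CHRM2, CHRNB2 and GRIK4 missed the threshold) and 4 at the minimum of 2 FPKM, where fewer genes were tested. CHRM2 and CHRNB2 also missed it after rescaling to the same summed FPKM (adjusted p = 0.0796 and 0.0536) and with only the groups compared (0.0678 and 0.0537). Calls were gained by GRIA4 with protein_coding genes only (0.0455) and both voom fits, by GRID1 with protein_coding genes only (0.0336) and no intensity trend (0.0407), and by GRIK5 in 7 settings (0.0349 to 0.0486). The number of all genes passing ranged from 474 to 991 with 1 library left out. With 1 library left out, signs of differences near 0 turned: the ranges were -0.0528 to 0.0403 for CHRNB1, -0.00765 to 0.0787 for CHRNB4, -0.0161 to 0.0294 for GABRA3 and -0.0289 to 0.0558 for GRIN2D, and, in second-line shL5 against SK-N-SH shNC, -0.00361 to 0.172 for CHRM3 and -0.0105 to 0.0269 for GRIA2. In the latter comparison 8 genes were lower with voom on reads scaled to library totals, an alternative chosen after seeing the data, against 4. The planned voom fit also called CHRNB4 (-3.08, adjusted p = 0.00138) and CHRNA7 (-2.43, 0.0104) lower, and CHRNB4 passed at a pseudocount of 0.1 (0.00375) and with only the groups compared (0.0215). CHRNA5 was gained as higher in 7 settings (0.0195 to 0.0499), CHRNA9 as lower in 5 and CHRNB1 as lower in 2. GRIN2D missed the threshold at a pseudocount of 0.1 (adjusted p = 0.116), and CHRNB2 missed it with no filter (0.0676), under the replicate block (0.0542) and with reads scaled to totals (0.0736). Scaling moved the split of all genes there: 60.9% of the genes that passed were higher, against 38.96% after rescaling each library to the same summed FPKM and 44.6% with reads scaled to totals. In the second line comparison rescaling moved the median of all genes from -0.02 to -0.14, and reads scaled to totals to -0.19.

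Replicate numbers did not pair the libraries: deviations of same-numbered libraries correlated between -0.0751 and 0.102 over 18 pairs, 1 over 0.1, and in 5 of 18 the own number was best. With the replicate block, 692 of all genes passed between SK-N-SH shL5 and second-line shNC against 854, and 5 receptor genes against 4 were lower between second-line shL5 and SK-N-SH shNC. With 3 libraries a group and few reads in the low groups, folds of CHRNA7, CHRNA9, GABRA3, GRIA2, GRID1, GRIN1, GRIK4 and GRM8 are known less well than their direction.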

Other observations

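Some low receptor genes and some genes that serve the receptors were also read in one pair of groups and hardly in the other; they were picked after their values were seen and are given as levels. GABRA5 and GABRG3 had no read in SK-N-SH shNC or second-line shL5, and averaged 0.0945 and 0.06899 FPKM in SK-N-SH shL5 and 0.119 and 0.133 in second-line shNC. RIC3, a chaperone of CHRNA7 receptors, averaged 0.01397, 0.663, 0.993 and 0 FPKM in SK-N-SH shNC, SK-N-SH shL5, second-line shNC and second-line shL5. LYPD6B, a toxin-like modulator of nicotinic receptors, had the opposite order at 1.25, 0.0477, 0.0574 and 1.98.

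Among scaffold and auxiliary proteins of glutamate receptors, GRIP1, SHANK2 and GSG1L had no read in SK-N-SH shNC or second-line shL5. SHANK2 averaged 1.44 and 1.93 FPKM in SK-N-SH shL5 and second-line shNC, GSG1L 1.17 and 1.98, and GRIP1 0.533 and 0.667. KCTD16, an auxiliary subunit of GABA-B receptors, averaged 0.0324, 1.67, 1.87 and 0.0223 FPKM in the order of groups above, unlike GABBR1. SLC1A1, a glutamate transporter, was read mainly in second-line shL5, at 1.78 FPKM against 0.0267 in SK-N-SH shNC, 0.0492 in SK-N-SH shL5 and 0.00976 in second-line shNC.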
